A study of Mus musculus with 15 samples.

Results

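The genes described here are 9 genes used as markers of astrocytes: Agt, Atp1b2, Gfap, Aqp4, Aldh1l1, Slc1a2, Slc1a3, S100b and Gja1. They were taken by symbol from tables of 57180 Ensembl gene identifiers, of which 51884 had a symbol, and all 9 passed the filter on low counts in both tables. Agt and Atp1b2 were chosen by their values in these libraries, so their levels and fold changes are given as a description without a p-value. The other 7 genes are textbook astrocyte markers and were tested.

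RNA-seq of polyA RNA from mouse brainstem (C57BL/6) was available for 15 libraries in 2 tables. In the AMPK table, 3 WT libraries stand beside 3 labelled AMPK-/-, from neonatal mice of a line made to lack the AMPKα2 subunit and from WT littermates. In the Lmx1b table, the 9 libraries are split evenly between WT, Lmx1b+/- and Lmx1b-/- labels, 3 each, all from embryos before birth, the stage at which Lmx1b-/- animals can be studied because the deletion is lethal. The animals used after birth were of postnatal days 1 to 5, with no day given per library, and the embryonic day is not given in the sources used here. AMPK is the kinase that senses low cellular energy, and Lmx1b is a transcription factor of hindbrain and midbrain patterning. The labels do not say which libraries come from separate animals, so the p-values measure only the spread between these samples.

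Astrocytes are glial cells that take up glutamate and potassium, move water and support synapses. They arise from radial glia late in embryonic life and after birth, and several of their genes are already used by radial glia. Slc1a3 and Slc1a2 encode the glutamate transporters GLAST and GLT-1. Aqp4 encodes the water channel of astrocyte endfeet, and Gja1 the gap junction protein connexin 43. Gfap is the intermediate filament of astrocytes and S100b a calcium-binding protein that oligodendrocytes also make. Aldh1l1 is a folate enzyme, Agt is angiotensinogen, the precursor of angiotensin, and Atp1b2 is the β2 subunit of the Na,K-ATPase. In whole brainstem tissue, fewer astrocytes and less RNA per astrocyte cannot be told apart.

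Promoter sequence is shown for the 3 members whose window holds the palindromic letters that STAT factors bind. Of the 9 members, 7 had an entry in the RefSeq promoter table (GRCm38.p6), which runs from 250 bases before the start to 50 after it, so that base 251 of each window is the start. The letters TTCNNNGAA, searched on both strands, were present in 8.3% of 32851 promoters of the same length. The windows are written 5′ to 3′ on the gene's strand, with the matches in capitals. Agt is at chr8:124569657-124569956 (minus strand), Gfap at chr11:102897151-102897450 (minus strand) and Slc1a3 at chr15:8710758-8711057 (minus strand).
Agt: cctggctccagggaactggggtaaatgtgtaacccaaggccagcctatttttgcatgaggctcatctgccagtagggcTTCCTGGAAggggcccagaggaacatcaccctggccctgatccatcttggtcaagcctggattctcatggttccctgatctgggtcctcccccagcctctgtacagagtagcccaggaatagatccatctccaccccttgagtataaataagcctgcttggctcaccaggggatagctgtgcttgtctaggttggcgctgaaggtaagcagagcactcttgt
Gfap: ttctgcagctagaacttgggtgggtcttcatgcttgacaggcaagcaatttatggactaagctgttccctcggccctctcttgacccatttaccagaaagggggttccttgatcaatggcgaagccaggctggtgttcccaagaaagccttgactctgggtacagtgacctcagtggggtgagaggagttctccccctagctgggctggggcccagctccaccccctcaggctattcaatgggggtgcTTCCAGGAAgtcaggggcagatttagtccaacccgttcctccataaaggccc
Slc1a3: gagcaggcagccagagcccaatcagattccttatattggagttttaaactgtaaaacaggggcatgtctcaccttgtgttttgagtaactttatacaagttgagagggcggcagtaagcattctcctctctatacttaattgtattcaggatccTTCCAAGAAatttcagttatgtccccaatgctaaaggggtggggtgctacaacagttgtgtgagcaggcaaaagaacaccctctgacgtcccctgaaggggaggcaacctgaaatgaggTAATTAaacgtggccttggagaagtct
The match covers bases 79 to 87 in Agt, bases 249 to 257 in Gfap, where it spans the start, and bases 155 to 163 in Slc1a3. The second stretch in capitals in Slc1a3, bases 274 to 279, is TAATTA, letters read by homeodomain factors such as Lmx1b, which were searched after the data had been seen and occur in 5.29% of promoters. The palindrome of the NFI factors was in none of the 7 windows and in 0.0365% of all promoters. These 3 genes did not share a pattern across the Lmx1b libraries: Agt and Gfap were low in the Lmx1b+/- libraries and Slc1a3 overlapped between all genotypes. A match is a description of letters and not evidence of binding.

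Levels are given as CPM, a gene's counts relative to the scaled total of its library. Total counts lay between 28833130 and 37441679 in the Lmx1b table and between 291212 and 17384171 in the AMPK table. WT 2 and AMPK-/- 3 of the AMPK table were shallow, with 291212 and 335986 counts, and there a count of 0 allows up to 9.98 and 9.07 CPM (3 counts, counting error only). WT 3 of the Lmx1b table stood apart in the share of counts on its most abundant gene, ENSMUSG00000119584, with 4.56% against up to 22.7% elsewhere. The targeted genes did not all follow the labels. In the Lmx1b table, Lmx1b lay at 9.73 to 22.5 CPM in WT, 11.9 to 30.5 CPM in the libraries labelled Lmx1b+/- (adjusted p = 0.618) and 0.848 to 1.45 CPM in Lmx1b-/- (log2 fold change −3.82 against WT, adjusted p = 0.00287). Prkaa2, which encodes AMPKα2, lay at 21.9 to 29.7 CPM in WT and 12.1 to 25.4 CPM in the libraries labelled AMPK-/- (log2 fold change −0.20, SE 0.23, adjusted p = 0.659). A deletion of part of a gene need not lower its count, and which part was deleted is not given in the sources used here. Groups are therefore named by their labels below.

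**Figure D1:**
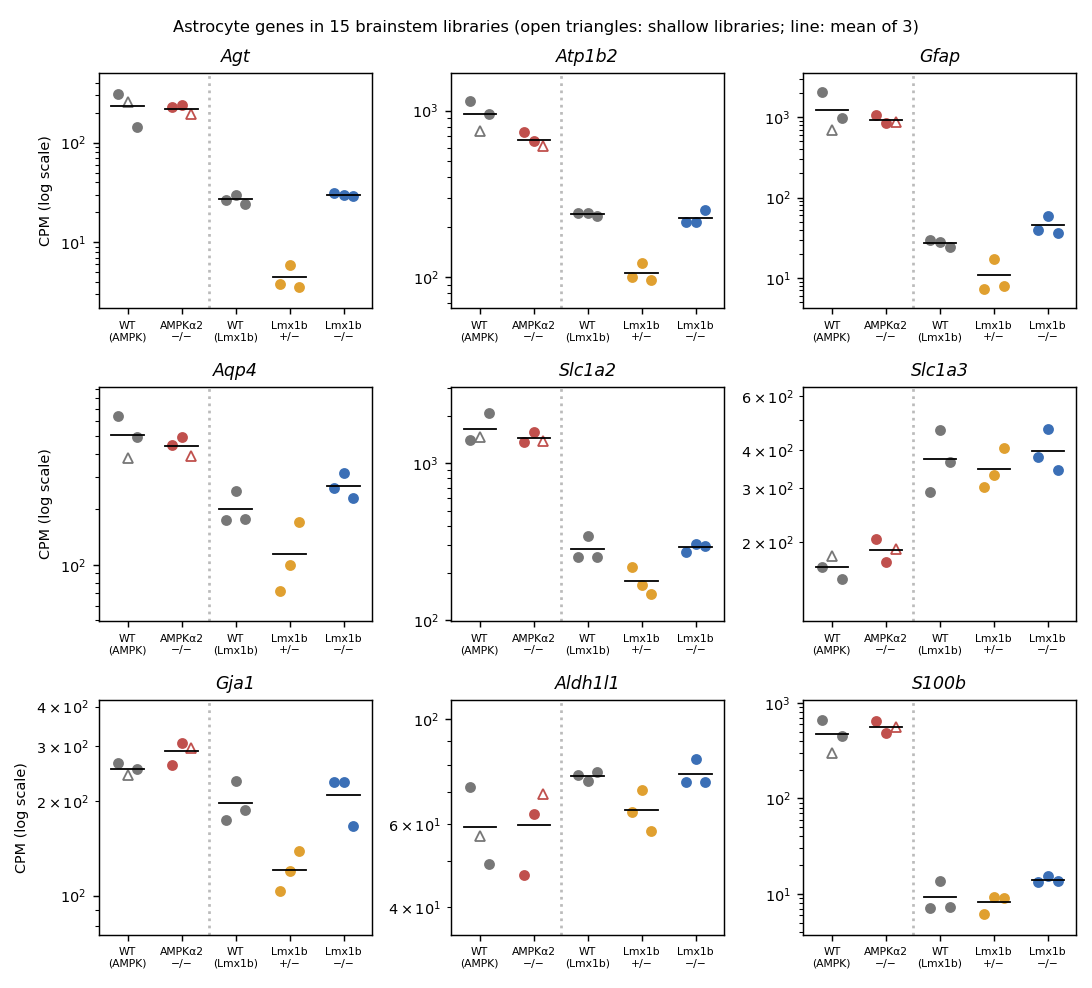
Level of each of the 9 genes in each library, in CPM on a log axis that differs between panels, with 3 libraries per group and the mean as a line; open triangles are the 2 shallow libraries and the dotted line separates the 2 tables. Agt lies at 3.54 to 5.94 CPM in the libraries labelled Lmx1b+/- and at 24.1 to 30.8 CPM in the other 6 embryonic libraries.

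Among the embryonic libraries, the mean level of each of the 9 genes was lowest in those labelled Lmx1b+/-. In Lmx1b-/- the means ran from 94.7% of WT (Atp1b2) to 165% (Gfap), with S100b at 150% and Aqp4 at 133%. Lmx1b itself was not lower in the libraries labelled Lmx1b+/-, so genotype, age within gestation and a mix-up of labels cannot be told apart as the source of their difference. Agt had the lowest mean relative to WT, 16.4% of it, followed by Gfap at 39.7%, Atp1b2 at 44.4%, Aqp4 at 56.5%, Gja1 at 60.9% and Slc1a2 at 62.7%. Aldh1l1, S100b and Slc1a3 kept means of 84.5%, 86.6% and 92.6% of WT. Of the 7 textbook members, 4 were lower in Lmx1b+/- than in WT and 0 were higher (edgeR's quasi-likelihood test, Benjamini-Hochberg adjusted p under 0.05). Over all 21729 genes tested, 17.3% were lower and 19.4% higher (3752 and 4225 genes). Scaled by library size only, these were 5816 lower and 2054 higher, with the median log2 fold change of all genes moved from −0.03 to −0.27, and 5 of the 7 members were then lower. The median log2 fold change of the 7 was −0.67, against −0.03 over all genes.

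Agt was at 26.6, 29.99 and 24.1 CPM in WT 1 to 3, at 3.76, 5.94 and 3.54 CPM in Lmx1b+/- and at 30.8, 30.1 and 29.0 CPM in Lmx1b-/-. All 3 Lmx1b+/- libraries were low and the WT and Lmx1b-/- libraries overlapped. The log2 fold change of Lmx1b+/- against WT was −2.60 (SE 0.17), or 6.08-fold lower, and that of Lmx1b-/- against Lmx1b+/- was 2.76 (SE 0.18). Lmx1b+/- 1 to 3 still held 104, 184 and 118 reads of Agt, so the level was measured and not at the limit of depth.

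Atp1b2 was at 244.2, 242.6 and 232.1 CPM in WT, 100.8, 122.4 and 96.1 CPM in Lmx1b+/- and 214.4, 214.4 and 251.7 CPM in Lmx1b-/-. Again the Lmx1b+/- libraries lay apart below the other 6. The log2 fold change was −1.17 (SE 0.11) against WT, or 2.25-fold lower.

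Gfap, the filament gene, was at 29.9, 27.9 and 24.1 CPM in WT, 7.31, 17.2 and 7.92 CPM in Lmx1b+/- and 39.3, 59.3 and 36.3 CPM in Lmx1b-/-. The 3 genotypes did not overlap, with Lmx1b+/- 2 nearer to WT than the other two of its group. Gfap was 2.52-fold lower in Lmx1b+/- than in WT (log2 −1.33, SE 0.28, adjusted p = 0.00233) and 4.15-fold higher in Lmx1b-/- than in Lmx1b+/- (adjusted p = 0.000236).

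The endfoot and gap junction genes moved less. Aqp4 was at 174.7, 252.4 and 178.1 CPM in WT, 71.8, 99.3 and 171.2 CPM in Lmx1b+/- and 259.6, 314.5 and 231.9 CPM in Lmx1b-/-. Lmx1b+/- 3 lay just under the lowest WT library, so the groups were separate by a narrow margin. The log2 fold change against WT was −0.82 (SE 0.25, adjusted p = 0.0216), and the adjusted p rose to 0.0922 without WT 2, 0.0664 without Lmx1b+/- 1 and 0.0763 without Lmx1b+/- 2, which ends the call each time. DESeq2 gave an adjusted p of 0.0541. Gja1 was at 174.5, 231.3 and 186.6 CPM in WT, 103.1, 119.6 and 138.2 CPM in Lmx1b+/- and 229.7, 230.8 and 166.1 CPM in Lmx1b-/-. Its 3 Lmx1b+/- libraries were all below the other 6 (log2 −0.71 against WT, SE 0.15, adjusted p = 0.00285).

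Of the glutamate transporters, Slc1a2 was called in Lmx1b+/- against WT and Slc1a3 was not, and the difference between them was not tested. Slc1a2 was at 251.9, 344.8 and 254.1 CPM in WT, 219.2, 167.4 and 146.6 CPM in Lmx1b+/- and 271.7, 308.1 and 296.2 CPM in Lmx1b-/-. It was 1.60-fold lower in Lmx1b+/- than in WT (log2 −0.67, SE 0.16, adjusted p = 0.00472), with no overlap. Slc1a3, which radial glia also express, was at 291.9, 463.6 and 365.6 CPM in WT, 302.0, 330.8 and 405.1 CPM in Lmx1b+/- and 380.7, 469.0 and 345.0 CPM in Lmx1b-/-. The 3 groups overlapped, and the 95% interval of the log2 fold change of Lmx1b+/- against WT ran from −0.49 to 0.26 (adjusted p = 0.651).

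Aldh1l1 differed little between libraries. It was at 76.1, 74.2 and 77.4 CPM in WT, 63.5, 70.9 and 57.9 CPM in Lmx1b+/- and 73.5, 82.3 and 73.7 CPM in Lmx1b-/-. The Lmx1b+/- libraries lay below WT without overlap, but the test did not pass over all genes (log2 −0.24, SE 0.10, adjusted p = 0.0616). Without Lmx1b+/- 2 it did pass (adjusted p = 0.025).

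S100b was scarce before birth, at 7.11, 13.7 and 7.28 CPM in WT, 6.15, 9.23 and 8.97 CPM in Lmx1b+/- and 13.2, 15.4 and 13.5 CPM in Lmx1b-/-. WT and Lmx1b+/- overlapped (95% interval of the log2 fold change −0.71 to 0.31, adjusted p = 0.539). The Lmx1b-/- libraries were above all 3 Lmx1b+/- libraries (log2 0.79, SE 0.23, adjusted p = 0.0257). That call was lost on leaving out Lmx1b+/- 1 or 3, or any 1 of the Lmx1b-/- libraries, with adjusted p between 0.0516 and 0.0841.

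**Figure D2:**
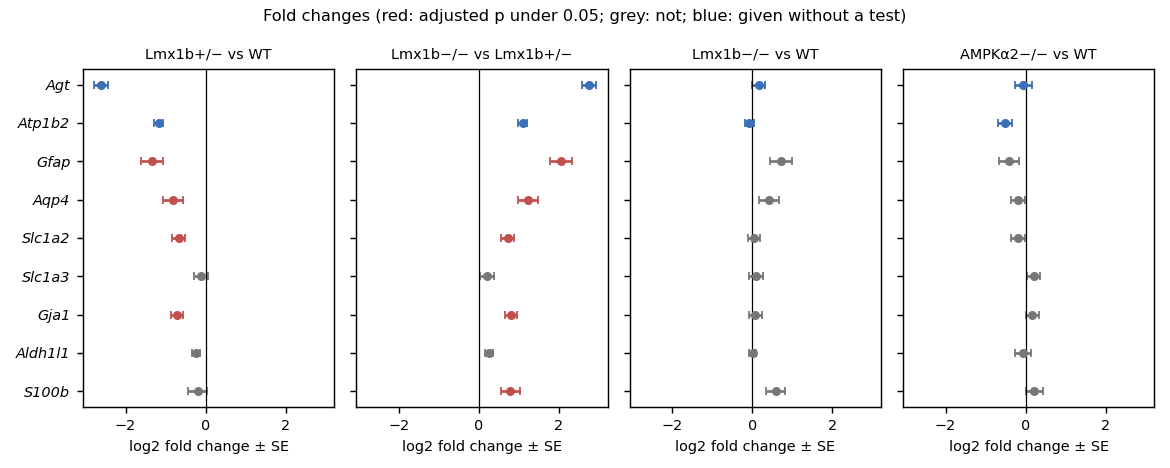
Fitted log2 fold change of each gene in 4 comparisons, with bars of 1 standard error; red points passed an adjusted p of 0.05, grey points did not, and blue points (Agt and Atp1b2) are given without a test. In Lmx1b+/- against WT the points run from −2.60 (Agt) to −0.11 (Slc1a3), and in Lmx1b-/- against WT from −0.08 (Atp1b2) to 0.72 (Gfap).

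Lmx1b-/- against Lmx1b+/- uses the same Lmx1b+/- libraries as the comparison above and is not a second measurement of them. There, 5 of the 7 textbook members were higher and 0 lower, while 11.5% of all genes were higher and 14.0% lower (2500 and 3044 genes, or 3737 and 1296 scaled by library size only). The 5 were Gfap, Aqp4 (log2 1.23, adjusted p = 0.00347), Gja1 (0.80, 0.00233), Slc1a2 (0.72, 0.00514) and S100b. Aldh1l1 (0.25, 0.0676) and Slc1a3 (0.20, 0.433) did not pass.

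Against WT, Lmx1b-/- had 0 of the 7 members called, where the share of all genes called was 0.0184% (4 genes). At an unadjusted p under 0.05 there were 2 of the 7, beside 8.09% of all genes, and DESeq2 and the likelihood-ratio test also called 0. Those 2 were Gfap (log2 0.72, SE 0.27, adjusted p = 0.544), whose 3 Lmx1b-/- libraries were all above WT, and S100b (log2 0.59, SE 0.23, adjusted p = 0.568), where WT 2 lay among the Lmx1b-/- libraries. For the other 5 the log2 fold change lay between 0.01 (Aldh1l1) and 0.41 (Aqp4, 95% interval −0.13 to 0.95). Agt was at 111% and Atp1b2 at 94.7% of the WT mean.

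The 9 genes were also compared with each other across libraries. In the Lmx1b table, over the 36 pairs, Pearson's r of log2 CPM over the 9 libraries was above 0 in all 36, between 0.21 and 0.984 with a median of 0.75. Among the 7 textbook members alone, the 21 pairs lay between 0.21 and 0.931 with a median of 0.697. The lowest values were those of Slc1a3, from 0.21 with Aldh1l1 to 0.37 with Gfap, while it reached 0.743 with S100b. The Lmx1b+/- libraries stand apart from the other 6 in most members, and the r values describe that shared split. In the AMPK table, with 6 libraries of which 2 were shallow, 24 of 36 pairs were above 0 and the median was 0.17. Of 12795 genes ranked over the Lmx1b libraries, Map1a (a microtubule-associated protein of neurons, r = 0.9956) and Ncan (neurocan, a matrix proteoglycan, 0.9937) were most like Agt, followed by Rap1gds1, Gstm1 and Gpam. Most like Atp1b2 were Cx3cl1 (the chemokine fractalkine, 0.9971), Enah, Ncan, Cyp2u1 and Rap1gap. Most like the mean of the 9 standardised genes were Mertk (a receptor for engulfing apoptotic cells and synapses, 0.9871), Nefh, Slc35f3, Apoe and Epb41l3. Map1a had means of 472 CPM in WT, 219 CPM in Lmx1b+/- and 495 CPM in Lmx1b-/-.

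A wider list of 36 other astrocyte genes was read the same way. In Lmx1b+/- against WT, where 17.3% of all genes were lower and 19.4% higher, 16 of the 36 were lower. A further 2 were higher (Cst3 and Mt3, named after their values were seen) and 18 were not called. The median log2 fold change of the 36 was −0.29. Among those with the smallest p were Ntsr2, a neurotensin receptor (3.42-fold lower, adjusted p = 5.45e-05), the protease Htra1 (2.45-fold, 0.000218) and the adhesion protein Hepacam (1.74-fold, 0.000233). In Lmx1b-/- against Lmx1b+/-, 20 were higher, led by Ntsr2 (3.71-fold, 7.52e-05) and the lipid carrier Apoe (2.13-fold, 0.000105), and 1 was lower. Shares over all genes there were 11.5% higher and 14.0% lower. In Lmx1b-/- against WT 0 of 36 were called (0.0184% of all genes), with 8 at an unadjusted p under 0.05 (8.09% of all genes). DESeq2 called 0 and the likelihood-ratio test 1.

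Genes of radial glia and the factors that turn them to glia went both ways in Lmx1b+/- against WT, with 4 higher, 4 lower and 8 of 16 not called, shares near those over all genes (19.4% higher and 17.3% lower). Fabp7, a fatty-acid-binding protein of radial glia, was 2.56-fold higher (1065 against 416.8 CPM, adjusted p = 0.000114), and Id3 and Prom1 were 1.51-fold and 1.69-fold higher (adjusted p = 0.0086 and 0.0151). Nfix, a factor of the NFI family that promotes glial genes, was 1.82-fold lower (66.2 against 120.5 CPM, adjusted p = 0.00283). In Lmx1b-/- against Lmx1b+/- the same list had 2 genes higher, Nfix (1.75-fold, adjusted p = 0.00644) and Ptprz1 (1.59-fold, adjusted p = 0.0104), and 4 lower, among them Vim (1.42-fold, adjusted p = 0.00399) and Fabp7 (1.68-fold, adjusted p = 0.00859). Shares over all genes in this comparison were 11.5% higher and 14.0% lower.

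The pump that Atp1b2 belongs to had 5 of 11 subunits lower and 1 higher in Lmx1b+/- against WT. Over all genes, 17.3% were lower and 19.4% higher. Fxyd7, a small regulatory subunit, fell 1.40-fold and Atp1b1, the other main β subunit, 1.28-fold (adjusted p = 0.00362 and 0.0328). Atp1b3 was 1.25-fold higher (adjusted p = 0.0112). In Lmx1b-/- against Lmx1b+/- 6 of the 11 were higher, Atp1b1 among them by 1.44-fold (adjusted p = 0.00674), and 0 were lower. The shares over all genes in that comparison were 11.5% higher and 14.0% lower.

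The genes around Agt took no common direction. Of 11 other renin-angiotensin genes tested in Lmx1b+/- against WT, Agtr2, a receptor of angiotensin, was higher (10.6 against 5.42 CPM, adjusted p = 0.000751), the peptidase Anpep was lower (3.06 against 7.52 CPM, adjusted p = 0.00518) and 9 were not called. Those calls are fewer in each direction than the shares over all genes, 19.4% higher and 17.3% lower. Ren1, which encodes the enzyme that cleaves angiotensinogen, had means of only 1.503 and 0.952 CPM (adjusted p = 0.443), and Ace, the converting enzyme, 19.5 and 28.8 CPM (adjusted p = 0.0524).

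Transmitter uptake had called genes in a single direction. Of 12 transporters and enzymes of glutamate, GABA and glycine handling besides the members, 9 were lower and 0 higher. Among them were the glycine transporter Slc6a9 (1.67-fold lower, adjusted p = 0.000122) and the GABA transporter Slc6a11 (1.67-fold lower, adjusted p = 0.000287). In Lmx1b-/- against Lmx1b+/- 8 of the 12 were higher and 0 lower, beside 11.5% of all genes higher and 14.0% lower. Of 13 reactive astrocyte genes tested in Lmx1b+/- against WT, 1 was higher (Timp1) and 2 lower (Stat3 and Cd44), no more than the shares over all genes. Of 12 other water channels and connexins, 3 were lower, namely Gjc3, Gjb6 and Gjb2, and Gjb1 was higher at about 1 CPM. Those counts stand beside 17.3% of all genes lower and 19.4% higher.

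**Figure D3:**
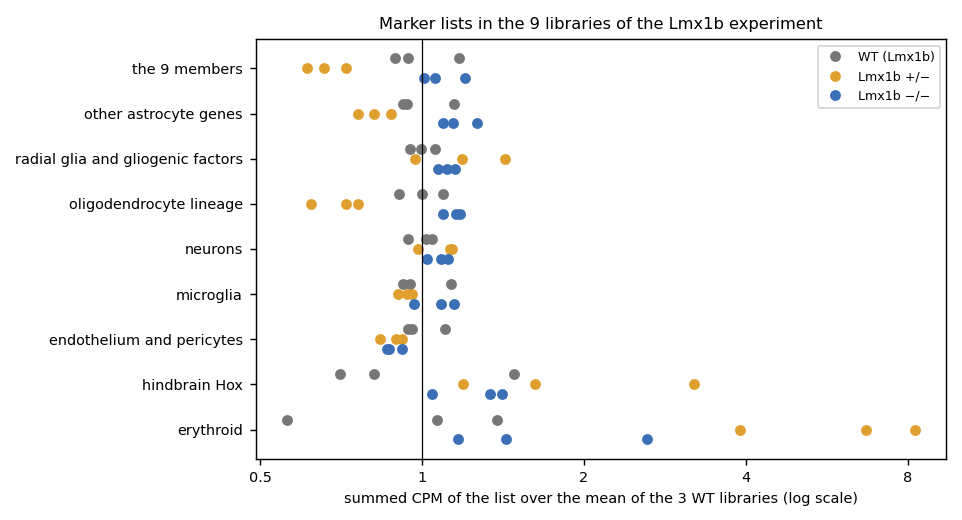
Summed CPM of 9 gene lists in each of the 9 embryonic libraries, divided by the mean of the 3 WT libraries (log axis); grey is WT, orange Lmx1b+/- and blue Lmx1b-/-. The oligodendrocyte lineage list sums to 344.8 to 422.8 CPM in Lmx1b+/- and 502.5 to 608.6 CPM in WT, and the erythroid list to 3551 to 7518 CPM and 509.9 to 1252 CPM.

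Genes of other cell types were also called in the same libraries. In Lmx1b+/- against WT the shares over all genes were 19.4% higher and 17.3% lower. Of 15 oligodendrocyte lineage genes tested, 12 were lower in Lmx1b+/- than in WT (Mobp, Gpr17, Mbp and Myrf led by p), and their summed level was 344.8 to 422.8 CPM in Lmx1b+/-, 502.5 to 608.6 CPM in WT and 608.5 to 653.2 CPM in Lmx1b-/-. All 8 erythroid genes tested were higher, with summed levels of 3551 to 7518 CPM against 509.9 to 1252 CPM. Of 12 hindbrain Hox genes, which mark position along the neural tube, 6 were higher (265 to 714.3 CPM against 156.5 to 330.8 CPM). The cerebellum list was lower in both mutant groups, at 349.5 to 475.4 CPM in Lmx1b+/-, 391.1 to 458 CPM in Lmx1b-/- and 504.4 to 663 CPM in WT. Called lower against WT were 5 of 11 genes in Lmx1b+/- and 1 of 11 in Lmx1b-/-, where 0.0184% of all genes were called. The choroid plexus list ranged widely, from 90.8 to 1762 CPM in Lmx1b+/-, 126.9 to 1375 CPM in Lmx1b-/- and 243.7 to 400.5 CPM in WT. In Lmx1b+/- 1 of 10 of its genes was called higher, below the share over all genes. The summed neuron list was 5887 to 6806 CPM in Lmx1b+/- and 5640 to 6241 CPM in WT, with 2 of 12 genes higher and 4 lower, and the microglia list overlapped (88.6 to 93.7 against 90.4 to 110.8 CPM). Mitochondrially encoded genes took 9.58% to 14.7% of counts in Lmx1b+/-, 5.57% to 6.74% in WT and 7.23% to 7.98% in Lmx1b-/-. The part of these cell types and regions, of position along the neural tube and of the mitochondrial share in the levels of the astrocyte genes was not tested.

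In the neonatal brainstem, the libraries labelled AMPK-/- had 0 of the 7 textbook members called against WT by the quasi-likelihood test, 0 at an unadjusted p under 0.05 (24.6% of all genes), and 0 by DESeq2. Over all 17397 genes, 8.94% were called, 3.77% higher and 5.17% lower (655 and 900 genes, or 273 and 1655 scaled by library size only). The median log2 fold change of the 7 was −0.07, against −0.01 over all genes. The share called over all genes was itself unstable: 1555 genes were called in all 6 libraries, 2958 without WT 1, 548 without WT 3, 921 without AMPK-/- 1, 605 without AMPK-/- 3, 680 by DESeq2, 0 by limma on RPKM and 6 in the 4 deep libraries.

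Atp1b2 was lower in all 3 AMPK-/- libraries than in any WT library, at 1141, 755.3 and 951.6 CPM in WT and 740.6, 658.5 and 610.4 CPM in AMPK-/-. The lowest WT value comes from the shallow library, on 227 reads. The log2 fold change was −0.51 (SE 0.17), or 1.42-fold lower, and −0.58 in the 4 deep libraries.

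Agt was at 306.3, 256.2 and 143.9 CPM in WT and 225.7, 240.6 and 193.4 CPM in AMPK-/-. The AMPK-/- libraries lay inside the range of WT, and the log2 fold change was −0.06 (SE 0.21). Gfap was at 2034, 692.1 and 960.6 CPM in WT and 1075, 841.8 and 867.3 CPM in AMPK-/-. WT 1 was the high one, and without it the log2 fold change of −0.42 (SE 0.25, adjusted p = 0.315) became 0.15 (adjusted p = 0.615).

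Aqp4 was at 379.3 to 639.2 CPM in WT and 389.8 to 495.9 CPM in AMPK-/-, and Slc1a2 at 1414 to 2074 CPM and 1363 to 1587 CPM. Slc1a3 was at 151.8 to 179.7 CPM in WT and 171.7 to 204.2 CPM in AMPK-/-, and Gja1 at 242.9 to 264.0 CPM and 261.2 to 306.1 CPM. In all 4 the groups overlapped, and the 95% intervals of the log2 fold change ended at −0.57 and 0.54 at the widest. Aldh1l1 lay at 49.3 to 71.9 CPM and 46.7 to 69.5 CPM. S100b lay at 656.0, 299.5 and 448.0 CPM in WT and 647.6, 478.8 and 559.1 CPM in AMPK-/- (log2 0.22, SE 0.21, adjusted p = 0.542). Without WT 1 it passed the test (log2 0.53, adjusted p = 0.0265), the single call among the 7 in any fit that left out 1 library. In the 4 deep libraries alone, 0 of the 7 were called and the log2 fold changes ran from −0.64 (Gfap, adjusted p = 0.338) to 0.25 (Slc1a3, adjusted p = 0.473), with S100b at 0.04.

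Of the 36 other astrocyte genes, 2 were higher in AMPK-/-, the metallothionein Mt3 (1.67-fold, adjusted p = 0.0174) and the protease inhibitor Cst3 (1.59-fold, adjusted p = 0.0311), and 0 were lower. Over all genes, 3.77% were higher and 5.17% lower, so this count was near the share over all genes. At an unadjusted p under 0.05 there were 10 of the 36, beside 24.6% of all genes. Scaled by library size only, 0 of the 36 were higher and 4 lower, and the median log2 fold change of all genes moved from −0.01 to −0.18. That direction therefore depends on the scaling. The count was 7 without WT 1, 1 without WT 2, and 0 without WT 3, without AMPK-/- 3 and in the 4 deep libraries. Of 11 reactive astrocyte genes tested, Serping1 (2.51-fold, adjusted p = 0.00592) and Cp (2.07-fold, adjusted p = 0.00994) were higher. In the renin-angiotensin list Atp6ap2, the prorenin receptor, was 1.53-fold higher (adjusted p = 0.0383). Of the gliogenic factors Nfix (3.02-fold, adjusted p = 0.000182) and Notch1 (2.46-fold, adjusted p = 0.00829) were lower. In the uptake list Slc6a9 was 1.91-fold lower and Slc6a13, a GABA transporter of meninges, 3.26-fold higher, and the connexin Gjb2 was 2.05-fold higher. Genes called were 2 of 11 reactive, 1 of 9 renin-angiotensin, 2 of 16 gliogenic, and 1 of 11 among water channels and connexins. The uptake list had 1 higher and 1 lower of 12. No list was tested as a set, and over all genes 8.94% were called.

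Markers of other tissue parts moved with the AMPK libraries as well. Of all genes, 3.77% were higher and 5.17% lower. Of 7 ependymal genes tested 4 were higher in AMPK-/-, with summed levels of 36.7 to 60.4 CPM against 13.3 to 30 CPM, and of 9 meningeal genes 4 were higher (176 to 323.3 CPM against 116.5 to 256 CPM). The 6 skeletal muscle genes tested were all lower, with 950.2 summed CPM in WT 3 and at most 15.9 CPM in the other 5 libraries. Mitochondrially encoded genes took 20% to 21.7% of counts in AMPK-/- and 10.4% to 13.9% in WT. The summed neuron list was 6347 to 6808 CPM in AMPK-/- and 5091 to 6101 CPM in WT. Of its 12 genes, 4 were higher and 1 lower. The choroid plexus list was 40.2 to 145.1 CPM in AMPK-/- and 15.5 to 22.5 CPM in WT. Of its 5 genes tested, 2 were higher and 0 lower. The oligodendrocyte list overlapped (18430 to 23380 against 14430 to 24840 CPM), as did the microglia list (323.3 to 399 against 246.2 to 471.2 CPM). The part of these in the values above was not tested.

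**Figure D4:**
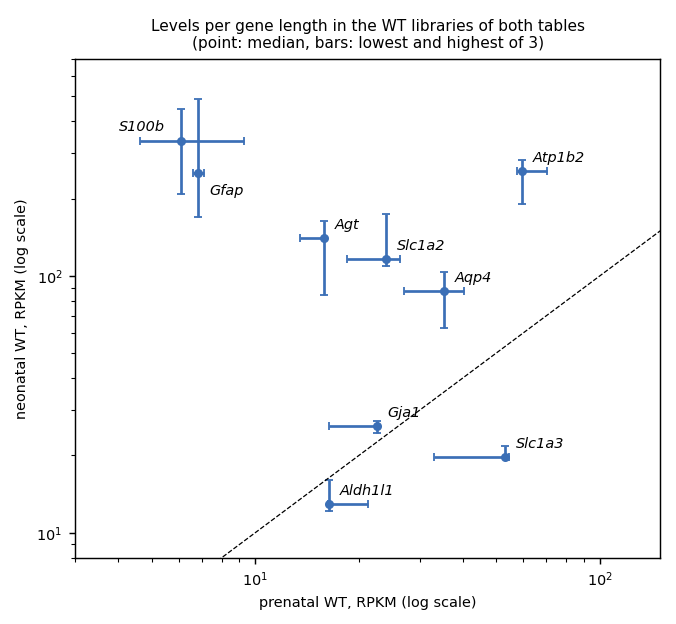
Level per gene length (RPKM, log axes) of each gene in the 3 neonatal WT libraries against the 3 prenatal WT libraries, as median with bars from the lowest to the highest library; the dashed line marks equal levels. S100b (334 against 6.08 RPKM) and Gfap (252 against 6.84 RPKM) lie furthest above the line, and Slc1a3 (19.7 against 53.1 RPKM) lies below it.

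The WT libraries of both tables give the levels before and after birth side by side. Age, experiment and sequencing run cannot be told apart in this pair, and no test was made across the tables. Median CPM in neonatal WT was 61.6 times that in prenatal WT for S100b, 34.5 times for Gfap, 9.65 times for Agt, 5.81 times for Slc1a2, 3.92 times for Atp1b2, 2.76 times for Aqp4 and 1.35 times for Gja1. Without the shallow WT 2 the ratio of Gfap was 53.8. Aldh1l1 (0.744 times) and Slc1a3 (0.454 times) were at lower levels in the neonatal libraries. Aldh1l1 lay at 49.3 to 71.9 CPM there and 74.2 to 77.4 CPM before birth, and Gja1, the other near-equal gene, at 242.9 to 264.0 CPM and 174.5 to 231.3 CPM, so that neither pair of ranges met.

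Per gene length, the order also changed. In prenatal WT the highest median RPKM was that of Atp1b2 (59.5) and Slc1a3 (53.1), whose ranges did not overlap, then Aqp4 (35.4), Slc1a2 (24.0), Gja1 (22.5), Aldh1l1 (16.4), Agt (15.8), Gfap (6.84) and S100b (6.08). Of the neighbours further down, Slc1a3 and Aqp4 overlapped, Slc1a2, Gja1 and Aldh1l1 formed an overlapping series, and so did Gfap and S100b, while Agt lay apart from both of its neighbours. In neonatal WT the order was S100b (334), Atp1b2 (257), Gfap (252), Agt (140), Slc1a2 (116), Aqp4 (87.3), Gja1 (26.1), Slc1a3 (19.7) and Aldh1l1 (12.9). There S100b, Atp1b2 and Gfap overlapped, as did Agt and Slc1a2, and each of the other neighbours lay apart. In Lmx1b+/- Agt had the lowest median RPKM of the 9 with Gfap (both 1.67), and in Lmx1b-/- its median was 16.4 beside 17.2 for Aldh1l1, with overlapping ranges.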

How the data were processed

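Brainstem RNA-seq of 15 libraries was analysed. Per the labels, polyA RNA was extracted with TRIzol, prepared with a directional kit that carries molecular indexes, and sequenced on an Illumina HiSeq. The authors deposited whole-number counts per gene and RPKM per gene for each experiment; the submitters' processing notes name HISAT2 and GRCm39, and the paper's methods systemPipeR. The counter, the annotation and the use of the indexes are not given in the sources used here. RPKM served for levels per gene length.

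Genotypes were compared on the counts by edgeR 4.0.16 under R 4.3.3 (filterByExpr defaults, TMM, quasi-likelihood F-test, genotype as the only term, Benjamini-Hochberg over all tested genes, threshold 0.05), in 1 fit of the 6 AMPK and 1 of the 9 Lmx1b libraries. CPM are counts scaled by the TMM-adjusted library total, in edgeR's unit. Intervals are at 95%. Alternatives were DESeq2 1.42.0, limma 3.58.1 on log2 RPKM, other scalings, filters and libraries left out. The procedure was also run on simulated counts in which all genes had the same relative spread between libraries. That is simpler than these data, so the run adds no support to the calls. No 2 deep libraries of a group agreed within sampling noise (chi-square per degree of freedom 8.9 to 272). Pairs with a shallow library gave 1.46 to 2.75, and at that depth the value cannot show whether they are separate samples. A WT 3 column of each table carries a suffix or another number than its title and was matched by it or by its library name.

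The members and lists were chosen with earlier results of these data known. All 9 members are named in each comparison, and of each list up to 4 called genes with the smallest p, besides renin-angiotensin and Na,K-ATPase genes of at least 1 CPM. Genes were ranked for likeness by Pearson's r of log2 CPM (prior count 2) among those with a mean of at least 5 CPM, and the first 5 were named. Some items are not reported here.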

Additional observations from a re-analysis of the deposited data

How the results depend on the processing

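In Lmx1b+/- against WT, Agt and Atp1b2 kept their direction under every alternative run. They were chosen by their values in these libraries, which every run reused, so this adds no support. Gfap, Gja1 and Slc1a2 also kept their direction under every alternative run, and they kept their call in each fit that left out 1 library. The count of textbook members called was 3 to 4 over those 9 fits, and 4 to 6 in Lmx1b-/- against Lmx1b+/-. For Slc1a3 and S100b, which were not called, the log2 fold change ran from −0.257 to 0.075 and from −0.357 to 0.178 over those fits. In Lmx1b-/- against WT, 1 textbook member and 2 other astrocyte genes were called when all genes with any count were kept, and 1 other astrocyte gene by the likelihood-ratio test. Aldh1l1 changed sign there to −0.03 by library size only, −0.004 with any count, −0.019 by limma at either pseudocount (1 or 0.1) and −0.017 with only the compared genotypes. Leaving out 1 library gave −0.044 to 0.04 for Aldh1l1, −0.059 to 0.206 for Slc1a2 and −0.057 to 0.276 for Slc1a3.

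In AMPK-/- against WT, the other astrocyte genes called were 4 by library size only, 4 with at least 10 counts in every library, 0 by limma at either pseudocount and 0 in the 4 deep libraries, and 0 to 7 with 1 library left out. The textbook members called were then 0 to 1. Agt was at 0.057 in the deep libraries. Leaving out 1 library gave −0.344 to 0.32 for Agt, −0.683 to 0.15 for Gfap, −0.333 to 0.013 for Aqp4, −0.249 to 0.163 for Aldh1l1 and −0.304 to 0.013 for Slc1a2. The cause of these changes was not tested.

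Replicate numbers did not pair the samples: the correlation of same-numbered deviations ran from −0.177 to 0.148. With the replicate number as a block, the textbook members called were 0 (AMPK-/- against WT), 4 (Lmx1b+/- against WT), 0 (Lmx1b-/- against WT) and 5 (Lmx1b-/- against Lmx1b+/-), and the other astrocyte genes 2, 17, 0 and 23, so that no count of members changed. Depth limits the AMPK table, where the median tested gene had 3 and 4 counts in the 2 shallow libraries.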
